A study of Mus musculus with 10 samples.

Results

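Genes that control autophagy and the lysosome were examined in the livers of fasted mice that lack both macroH2A histone variants. The set was chosen by name and held 39 genes, listed by their place in the pathway, out of 22180 genes that the array annotation names on single-symbol probe sets. That choice was made with earlier results of these data known. Of the 39, 37 had a probe set annotated to a single symbol, Bnip3l occurred only on a probe set shared with its pseudogene Bnip3l-ps, and Optn was not analysed here. Where a gene had several probe sets, which applied to Gabarap only, the probe set of highest mean level was used, with the other given as a further value.

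The tested livers came from 5 mice labelled macroH2A1 macroH2A2 double knockout, and the comparison livers from 5 mice labelled wild-type. All were males of the strain 129/S6 (taconic), aged 2 months, kept on low fat chow, fasted overnight for about 16 h and killed between 9 and 10 AM, so no fed state was compared. The labels do not say in which cells or at which stage the genes are missing, and they give no animal numbers; if any arrays shared an animal, p-values would measure only the spread between arrays. MacroH2A1 and macroH2A2 are variants of histone H2A with a large extra domain outside the nucleosome core. Levels are log2 array values, so a difference of 1 between groups is a doubling, and levels of different probe sets are not compared with each other.

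Autophagy is the route by which a cell encloses part of its own cytoplasm in a membrane and delivers it to the lysosome for breakdown. In liver it is known as a source of amino acids and lipids during a fast, and it is switched on when the nutrient-sensing kinase mTORC1 is off. The ULK1 complex starts the process, a class III PI3-kinase complex marks the membrane, a pair of ubiquitin-like conjugation systems attaches proteins of the Atg8 family to it, receptors bring in cargo, and the transcription factors TFEB and TFE3 control the genes of lysosomes and autophagy.

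Whole-array summaries of the deposited levels were close to each other. Array medians lay between 6.43 and 6.46, correlations between arrays between 0.989 and 0.995, and 0 arrays were identical. Processing before deposit can make such summaries alike, so they do not measure the quality of the samples. Probe sets of olfactory receptors, which liver is not known to use, gave a guide to background, with a 95th percentile of 6.54. Macroh2a1 fell in the double knockout group, by 0.49 on the log2 scale (SE 0.05, adjusted p = 0.00128 in limma), with every double knockout array below every wild-type array, whereas Macroh2a2, at or below the background guide, had a difference of -0.20 (SE 0.13, limma adjusted p = 0.514). It was not known here whether either probe set reads a deleted exon, so the remaining signal is not a measure of intact transcript. Markers of liver parenchyma were strong on every array: 10 hepatocyte genes, among them Apoc3, Serpina1a and Hnf4a, had a mean level per array of 13.12 to 13.15 in double knockout and 13.12 to 13.20 in wild-type livers. Means of all 15 macrophage markers were higher in the double knockout group, by a median of 0.22, and Cd163 and Marco were called; the list mean per array was 9.02 to 9.34 in double knockout and 8.80 to 9.11 in wild-type livers. Markers of liver endothelium (5 of 7 higher, median 0.07) and stellate cells (3 of 7 higher, median -0.008) had 0 calls. Markers of acinar cells of the pancreas, an organ next to the liver, differed between arrays of the same group, with list means of 6.05 to 8.74 in double knockout and 6.04 to 10.73 in wild-type arrays, the highest being wild-type replicate 5. Of the 9 measured, 7 had lower means in the double knockout group, with a median log2 difference of -0.62 and 0 calls.

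Autophagy and lysosome genes differed little between the genotypes. Of the 37 measured members, 20 had higher and 17 lower means in double knockout livers, and the median difference was 0.004, beside -0.003 over all 25335 probe sets tested. Only Atg7, the enzyme that activates both ubiquitin-like systems, passed limma's test at an adjusted p under 0.05, and it fell. That is 2.70% of the measured members, beside 0.884% of all probe sets called in either direction, 0.553% called lower and, in either direction, 1.44% of the 14078 whose mean lay above the background guide. In bulk liver, fewer cells of a type and less RNA per cell cannot be told apart, for Atg7 as for all genes described here. All 37 members lay above that guide on all 10 arrays. At an unadjusted p under 0.05 there were 9 members (24.3%), 3 higher and 6 lower, beside 15.1% of all probe sets (7.52% higher and 7.6% lower) and 19.5% of those above the guide. The groups did not overlap for 5 members (13.5%), beside 3.90% of all probe sets and 5.78% of those above the guide.

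The size of the differences was described as well as tested. For 33 of the 37 members the estimated difference in mean level was under 10% in either direction, and the other 4 were Atg101, Atg7, Tfe3 and Uvrag. That count is of estimates, and intervals can reach further. The 95% interval of the difference lay within 0.2 on the log2 scale on both sides for 23 members and within 0.3 for 32. Outside 0.3 were the intervals of Atg101, Atg7, Tfe3, Uvrag and Wipi1. The spread between livers of 1 genotype was also small, with a median SD within groups of 0.07 over the members and 0.10 over all probe sets tested.

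**Figure D1:**
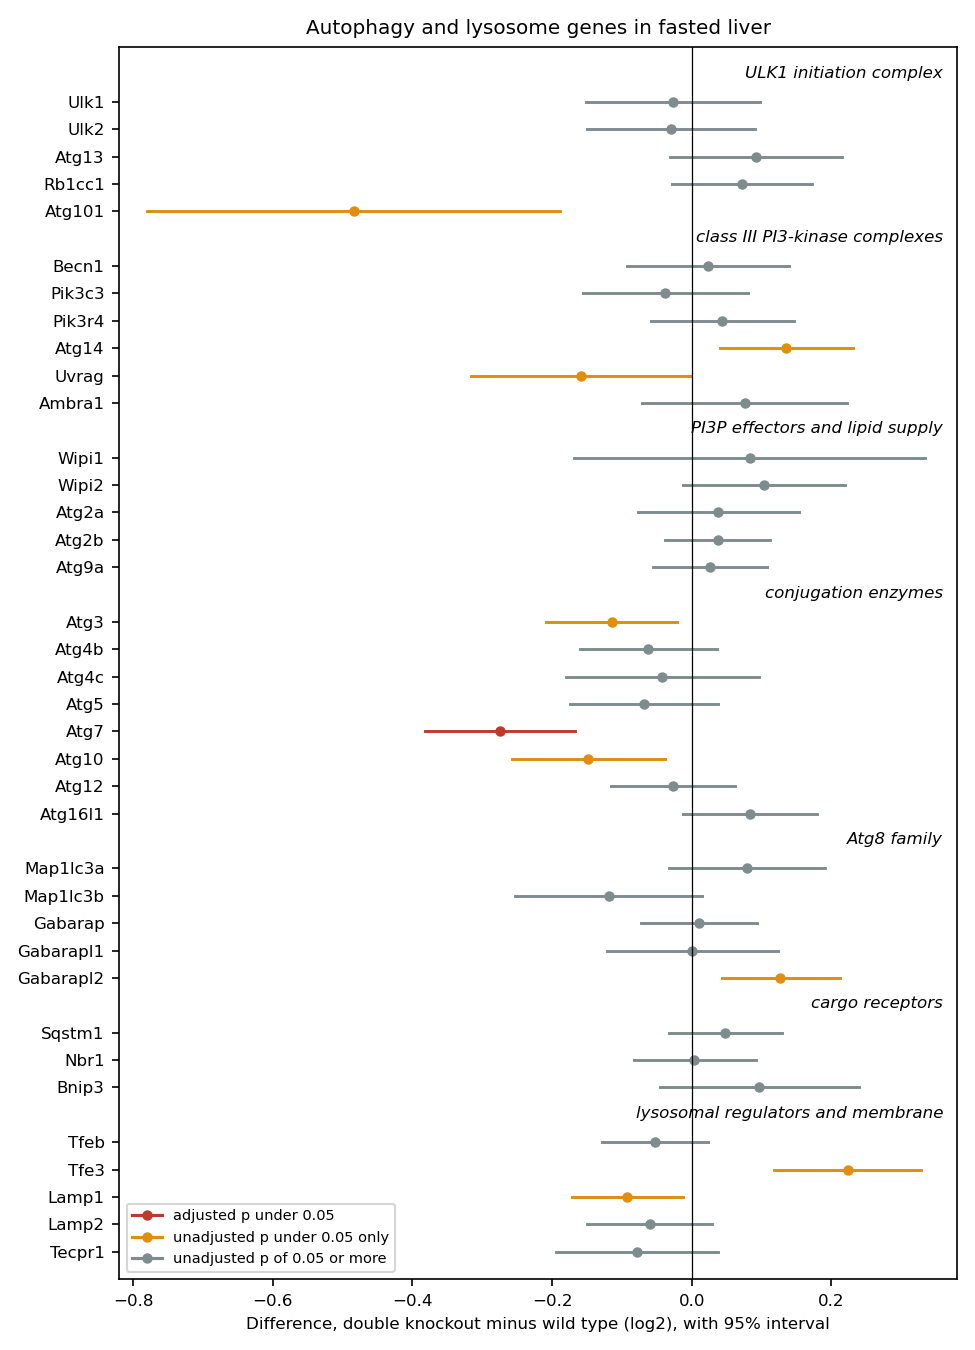
Difference in level between double knockout and wild-type livers for the 37 measured genes, in log2 units on the horizontal axis, with 95% intervals from limma and genes grouped by their step in the pathway. Atg7 is the single member with an adjusted p under 0.05, Tfe3 lies to the right at 0.22, and Atg101 lies farthest to the left, at -0.48, with the widest interval.

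The ULK1 initiation complex, which receives the signal from mTORC1 and AMPK, held 5 measured members, with 2 higher and 3 lower means and 0 called. Without double knockout replicate 5 there were 4 higher and 1 lower. The kinases themselves gave log2 differences of -0.03 for Ulk1 (interval -0.15 to 0.10) and -0.03 for Ulk2 (interval -0.15 to 0.09). The scaffold Rb1cc1, known as FIP200, had 0.07, and the adaptor Atg13 had 0.09.

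Atg101, which binds and stabilises Atg13 in this complex, had the largest difference of all members in size but did not pass. Its log2 levels were 9.64, 9.92, 9.51, 9.90 and 9.31 in double knockout replicates 1 to 5, against 10.10, 10.35, 10.16, 10.34 and 9.74 in wild-type replicates 1 to 5. All 5 double knockout arrays lay below the wild-type mean and 3 lay below every wild-type array, while wild-type replicate 5 fell among the double knockout values. The means were 9.65 ± 0.26 in double knockout and 10.14 ± 0.25 in wild-type livers (SD, n = 5 each), a level 28.5% lower in double knockout livers (log2 difference -0.48, SE 0.14, limma adjusted p = 0.121). Its SD within groups, 0.26, was the largest of the 37 members. Over the fits that left out 1 array the log2 difference lay between -0.58 and -0.40, and limma adjusted p reached 0.249. The value of -0.58 (SE 0.12, limma adjusted p = 0.0547) was without wild-type replicate 5, which carried the highest acinar marker mean. The value of -0.40 (limma adjusted p = 0.209) was without double knockout replicate 5. Without the 4 arrays of highest acinar marker mean it was -0.63 (SE 0.14, limma adjusted p = 0.148). With the acinar marker mean as a covariate it was -0.49 (limma adjusted p = 0.138).

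The class III PI3-kinase complexes make the lipid PI3P on the forming membrane. The catalytic subunit Pik3c3 had a log2 difference of -0.04, the regulatory subunit Pik3r4 0.04, the scaffold Becn1 0.02 and Ambra1, a regulator of Becn1, 0.08, with limma adjusted p from 0.659 to 0.890. The 2 members with an unadjusted p under 0.05 mark alternative forms of the complex and differed in opposite directions. Atg14 directs the complex to autophagosome formation. It stood at 8.63, 8.81, 8.69, 8.75 and 8.70 in double knockout livers, against 8.60, 8.61, 8.61, 8.51 and 8.57 in wild-type livers. The groups did not overlap, but the lowest double knockout value was close to the highest wild-type values, and the log2 difference of 0.14 (SE 0.04) did not pass (limma adjusted p = 0.170).

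Uvrag takes the place of Atg14 in the form of the complex that acts in endosome and autophagosome maturation. Its log2 levels were 10.56, 10.39, 10.50, 10.42 and 10.38 in double knockout livers, against 10.49, 10.67, 10.74, 10.74 and 10.39 in wild-type livers. Wild-type replicates 1 and 5 lay within the double knockout range and the other 3 lay above it. The log2 difference was -0.16 (SE 0.07, limma adjusted p = 0.327). The difference of these 2 opposite values was not tested.

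PI3P effectors and the proteins that supply lipid to the growing membrane had higher means in all 5 cases and 0 calls, while 51.5% of all probe sets had lower means. In the fit that also held the mean of the macrophage markers 3 of the 5 were higher. Wipi2, which binds PI3P and recruits the conjugation machinery, had a log2 difference of 0.10 (SE 0.05, limma adjusted p = 0.392), and 4 of the 5 double knockout arrays lay above every wild-type array. The lipid transfer proteins Atg2a and Atg2b had 0.04 each, and the membrane-spanning lipid scramblase Atg9a had 0.03. Atg2b was the least variable member, with an SD of 0.02 within groups. Wipi1, another PI3P-binding protein, spread widely among double knockout livers, at 8.75, 8.53, 8.75, 8.47 and 8.06. Its wild-type values ranged less, around a mean of 8.43 ± 0.11 (SD, n = 5), and the log2 difference of 0.08 had an interval of -0.17 to 0.33.

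The conjugation enzymes were the step with the called member, and 7 of their 8 measured genes were lower in mean in the double knockout group, at a median log2 difference of -0.07 (range of single values, -0.27 to 0.08). That median was -0.125 without the 4 arrays of highest acinar marker mean and -0.04 in the fit with the macrophage marker mean. Atg7 is the E1-like enzyme that activates both Atg12 and the Atg8 proteins. Its log2 levels were 9.68, 9.65, 9.71, 9.60 and 9.56 in double knockout livers, against 9.86, 9.91, 9.83, 10.04 and 9.95 in wild-type livers. Every double knockout value lay below every wild-type value. The means were 9.64 ± 0.06 in double knockout and 9.92 ± 0.08 in wild-type livers (SD, n = 5 each), so that Atg7 was 17.3% lower in double knockout livers (log2 difference -0.27, SE 0.05, interval -0.38 to -0.17, limma adjusted p = 0.0279).

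When single arrays were left out, the log2 difference lay between -0.295 and -0.244 and limma adjusted p between 0.0361 and 0.0739, and the call was lost in the fits lacking double knockout replicate 2, 4 or 5, or wild-type replicate 2, 4 or 5. Without the 4 arrays of highest acinar marker mean the log2 difference was -0.24 (limma adjusted p = 0.178). In a fit that also held the mean of the macrophage markers it was -0.34 (SE 0.07, limma adjusted p = 0.0955); the covariate differed between the genotypes too.

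Next in the chain, Atg10 and Atg3 are the E2-like enzymes that pass on Atg12 and the Atg8 proteins. Atg10 stood at 9.19, 9.25, 9.18, 9.27 and 9.10 in double knockout livers, against 9.37, 9.37, 9.28, 9.45 and 9.26 in wild-type livers. Only wild-type replicate 5 lay within the double knockout range, and the log2 difference of -0.15 (SE 0.05) did not pass (limma adjusted p = 0.189). Atg3 stood at 10.95, 10.88, 10.93, 10.91 and 10.92 in double knockout livers, against 11.02, 11.09, 11.05, 11.08 and 10.91 in wild-type livers. Here too wild-type replicate 5 was the exception, and the log2 difference was -0.11 (SE 0.04, limma adjusted p = 0.231). Without that array the log2 differences were -0.17 for Atg10 and -0.14 for Atg3, with limma adjusted p of 0.156 and 0.112. These were the largest of the fits that left out 1 array. The smallest were -0.12 for Atg10 and -0.10 for Atg3, and limma adjusted p reached 0.318 and 0.401.

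The other conjugation genes lay closer to 0. Atg5 and Atg12, which are joined to each other by this system, had log2 differences of -0.07 and -0.03. The proteases Atg4b and Atg4c, which trim Atg8 proteins before conjugation and release them afterwards, had -0.06 and -0.04. The exception in sign was Atg16l1, which places the Atg12 and Atg5 conjugate on the membrane, at 0.08 (SE 0.04, limma adjusted p = 0.408).

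**Figure D2:**
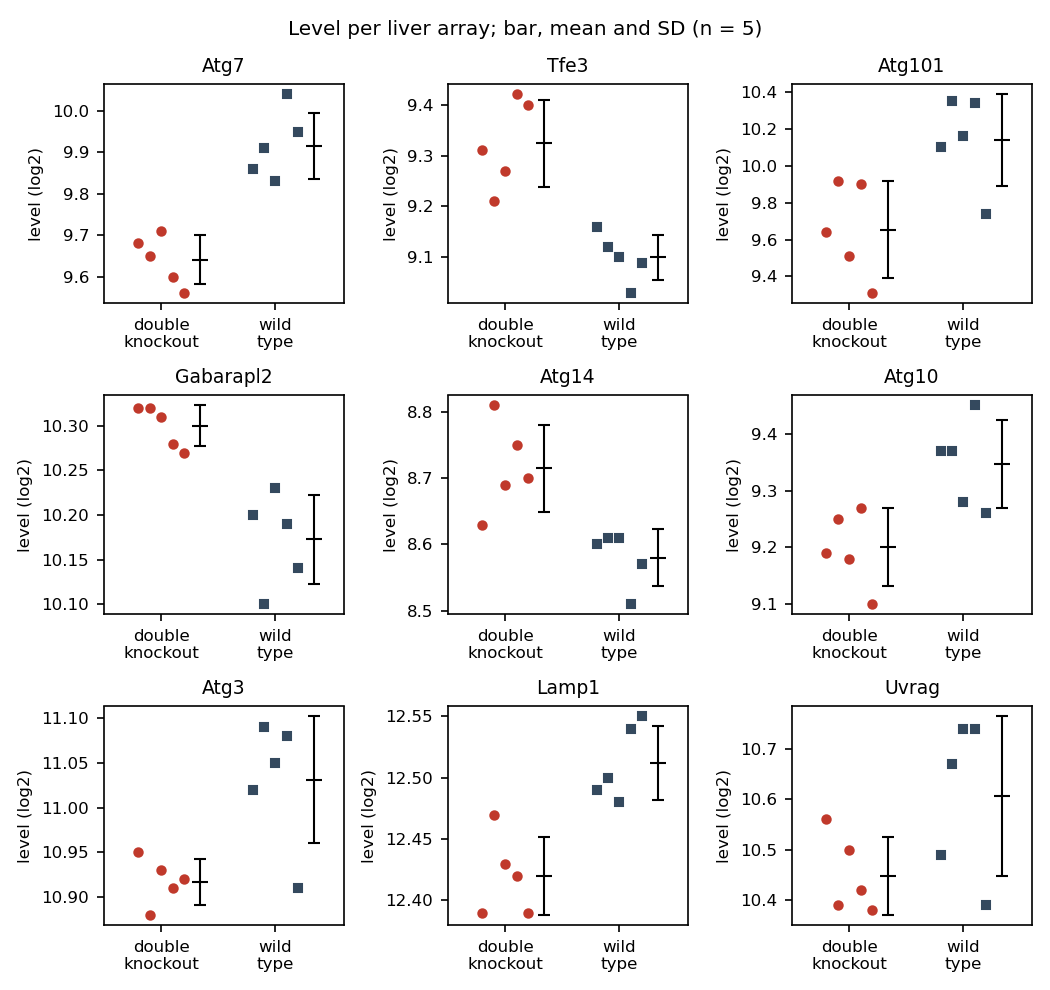
Log2 level on each array for the 9 genes with an unadjusted p under 0.05, in order of that p. In each panel double knockout livers (circles) stand left of wild-type livers (squares), replicates 1 to 5 run from left to right, and bars give the mean and SD (n = 5); the vertical axes do not start at 0 and differ between panels. The groups are apart for Atg7, Tfe3, Gabarapl2, Atg14 and Lamp1, and wild-type replicate 5 lies among the double knockout values for Atg101, Atg10, Atg3 and Uvrag.

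Promoter sequences were read because TFEB and TFE3 are known to bind the palindrome CACGTG, the core of the lysosomal gene motif called CLEAR; clock and MYC family factors bind the same letters. RefSeq windows of 300 bases (250 before and 50 after a transcription start, build GRCm38.p6) were at hand for 32 of the 39 members. These members had 37 windows, and a gene was counted if any of its windows held the letters. The palindrome CACGTG, which reads the same on both strands, occurred in 6 of the 32 members, beside 8.09% of 27025 genes with a window. The 6 were Atg14, Atg3, Atg5, Atg7, Bnip3 and Lamp1. Among the 9 members with an unadjusted p under 0.05 it was found in 4, and among the other 23 in 2. That split was made by p-values from these same data, and the 9 differed in direction. Whether the counts differ was not tested. The longer CLEAR palindrome, which adds GT before and AC after the same letters, occurred in 0 members and in 0.37% of genes. The FOXO element TGTTTAC, searched on both strands, occurred in 0 members and 4.05% of genes, and the cAMP response element TGACGTCA in Atg5 alone and 2.03% of genes. A match describes letters in a window and is neither a binding site nor a cause.

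The 4 windows that hold CACGTG among the 9 members are shown so that its number and place can be compared between a called gene (Atg7), genes with lower means (Atg3 and Lamp1) and a gene with a higher mean (Atg14). They are printed 5′ to 3′ on the strand of the gene with CACGTG in capitals. Atg7 lies at chr6:114670846-114671145 on the plus strand, with 1 match whose first base is at -132 from the start. Atg3 lies at chr16:45158579-45158878 on the plus strand, with matches at -94 and -71. Lamp1 lies at chr8:13158911-13159210 on the plus strand, with 4 matches at -61, -45, -28 and -15. Atg14 lies at chr14:47568385-47568684 on the minus strand, with 1 match at -1. The Atg7 window is also poorer in G and C, at 42.7%, than those of Atg3 (67.3%), Lamp1 (60.7%) and Atg14 (57.7%). Only windows with a match were printed. Whether the Atg7 window lies at the main start of the gene, or at a start used in liver, was not examined.
Atg7: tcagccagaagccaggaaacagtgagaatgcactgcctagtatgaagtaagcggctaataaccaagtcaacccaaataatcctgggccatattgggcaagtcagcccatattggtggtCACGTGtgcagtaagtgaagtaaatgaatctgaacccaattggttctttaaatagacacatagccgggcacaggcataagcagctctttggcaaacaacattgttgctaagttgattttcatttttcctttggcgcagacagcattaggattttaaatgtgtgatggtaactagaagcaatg
Atg3: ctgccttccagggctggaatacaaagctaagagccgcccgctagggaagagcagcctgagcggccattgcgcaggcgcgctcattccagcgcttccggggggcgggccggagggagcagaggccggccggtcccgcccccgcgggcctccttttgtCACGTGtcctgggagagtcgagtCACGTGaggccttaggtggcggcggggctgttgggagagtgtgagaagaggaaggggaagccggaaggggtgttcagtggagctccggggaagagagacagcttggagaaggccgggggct
Lamp1: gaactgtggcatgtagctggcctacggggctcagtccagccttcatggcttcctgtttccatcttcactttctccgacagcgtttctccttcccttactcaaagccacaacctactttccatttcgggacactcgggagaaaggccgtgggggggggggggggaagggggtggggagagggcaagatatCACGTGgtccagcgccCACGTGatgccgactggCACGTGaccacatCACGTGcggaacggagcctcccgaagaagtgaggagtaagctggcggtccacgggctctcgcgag
Atg14: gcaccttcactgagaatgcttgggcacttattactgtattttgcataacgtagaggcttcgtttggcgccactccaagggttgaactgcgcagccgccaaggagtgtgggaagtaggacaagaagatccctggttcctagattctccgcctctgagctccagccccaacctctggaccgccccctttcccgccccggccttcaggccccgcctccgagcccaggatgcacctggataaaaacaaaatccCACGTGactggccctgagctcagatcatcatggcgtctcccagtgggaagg

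The Atg8 family, the proteins that are attached to the membrane and hold the receptors, had 4 higher and 1 lower mean and 0 calls. This count turned to 2 higher and 3 lower without double knockout replicate 3, and likewise without wild-type replicate 2. Gabarapl2 was at 10.32, 10.32, 10.31, 10.28 and 10.27 in double knockout livers, against 10.20, 10.10, 10.23, 10.19 and 10.14 in wild-type livers. The groups did not overlap and the double knockout values were tightly grouped (SD 0.02), yet the log2 difference of 0.13 (SE 0.04) did not pass (limma adjusted p = 0.149). Map1lc3b, which encodes the LC3B protein used as a marker of autophagosomes, was lower in mean, with 12.66 ± 0.06 in double knockout and 12.78 ± 0.13 in wild-type livers (SD, n = 5 each) and a log2 difference of -0.12 (limma adjusted p = 0.395). Its relative Map1lc3a had 0.08, and Gabarapl1 had 0.0004 with an interval of -0.12 to 0.12. Gabarap had 0.01 on its main probe set and 0.05 on its second, with limma adjusted p of 0.938 and 0.816.

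Cargo receptors had higher means for all 3 measured members and 0 calls. Sqstm1, the p62 protein that links ubiquitinated cargo to Atg8 proteins and is itself consumed by autophagy, had a log2 difference of 0.05, with an interval of -0.03 to 0.13. Nbr1, a related receptor, had 0.004 (interval -0.08 to 0.09). The mitophagy receptor Bnip3 had 10.90, 10.70, 10.96, 10.86 and 10.67 in double knockout livers and a mean of 10.72 ± 0.09 (SD, n = 5) in wild-type livers, a log2 difference of 0.10 (SE 0.07, limma adjusted p = 0.541). The probe set shared by Bnip3l, another mitophagy receptor, and its pseudogene had 12.10 ± 0.08 in double knockout and 11.98 ± 0.05 in wild-type livers (SD, n = 5 each), a log2 difference of 0.12 (SE 0.05, limma adjusted p = 0.244), and cannot be assigned to either.

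Among lysosomal regulators, the transcription factor genes Tfe3 and Tfeb differed in sign. Tfe3 stood at 9.31, 9.21, 9.27, 9.42 and 9.40 in double knockout livers, against 9.16, 9.12, 9.10, 9.03 and 9.09 in wild-type livers. All double knockout values lay above all wild-type values. The means were 9.32 ± 0.09 in double knockout and 9.10 ± 0.05 in wild-type livers (SD, n = 5 each), a level 16.8% higher in double knockout livers, and the log2 difference of 0.22 (SE 0.05, interval 0.12 to 0.33) missed the threshold (limma adjusted p = 0.0557). It passed in 5 of 24 alternative fits, among them the one without double knockout replicate 2 (log2 difference 0.25, limma adjusted p = 0.0466). Over the 10 fits that left out 1 array its log2 difference lay between 0.20 and 0.25, and limma adjusted p reached 0.135. Without the 4 arrays of highest acinar marker mean it was 0.24 (limma adjusted p = 0.180). In the fit that also held the macrophage marker mean it was 0.315 (limma adjusted p = 0.0927).

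Tfeb, the closest relative of Tfe3, had 6.96 ± 0.02 in double knockout and 7.01 ± 0.03 in wild-type livers (SD, n = 5 each), a log2 difference of -0.05 (interval -0.13 to 0.02, limma adjusted p = 0.535). Its signal lay close to the background guide of 6.54, where array values can understate a change. These values are of RNA, whereas both factors are known to be controlled mainly by their entry into the nucleus.

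Lamp1, Lamp2 and Tecpr1, which act at the lysosome, had lower means and were not called. Lamp1, the major membrane glycoprotein of lysosomes, stood at 12.39, 12.47, 12.43, 12.42 and 12.39 in double knockout livers, against 12.49, 12.50, 12.48, 12.54 and 12.55 in wild-type livers. The groups did not overlap, by a narrow margin, and the log2 difference of -0.09 (SE 0.04) did not pass (limma adjusted p = 0.257). Lamp2, which acts in chaperone-mediated autophagy and in fusion, had -0.06 (limma adjusted p = 0.543). Tecpr1, a tether between autophagosomes and lysosomes, had -0.08 (limma adjusted p = 0.540). Like that of Tfeb, its signal, with a lowest array of 6.89, lay close to the background guide of 6.54, where array values can understate a change.

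**Figure D3:**
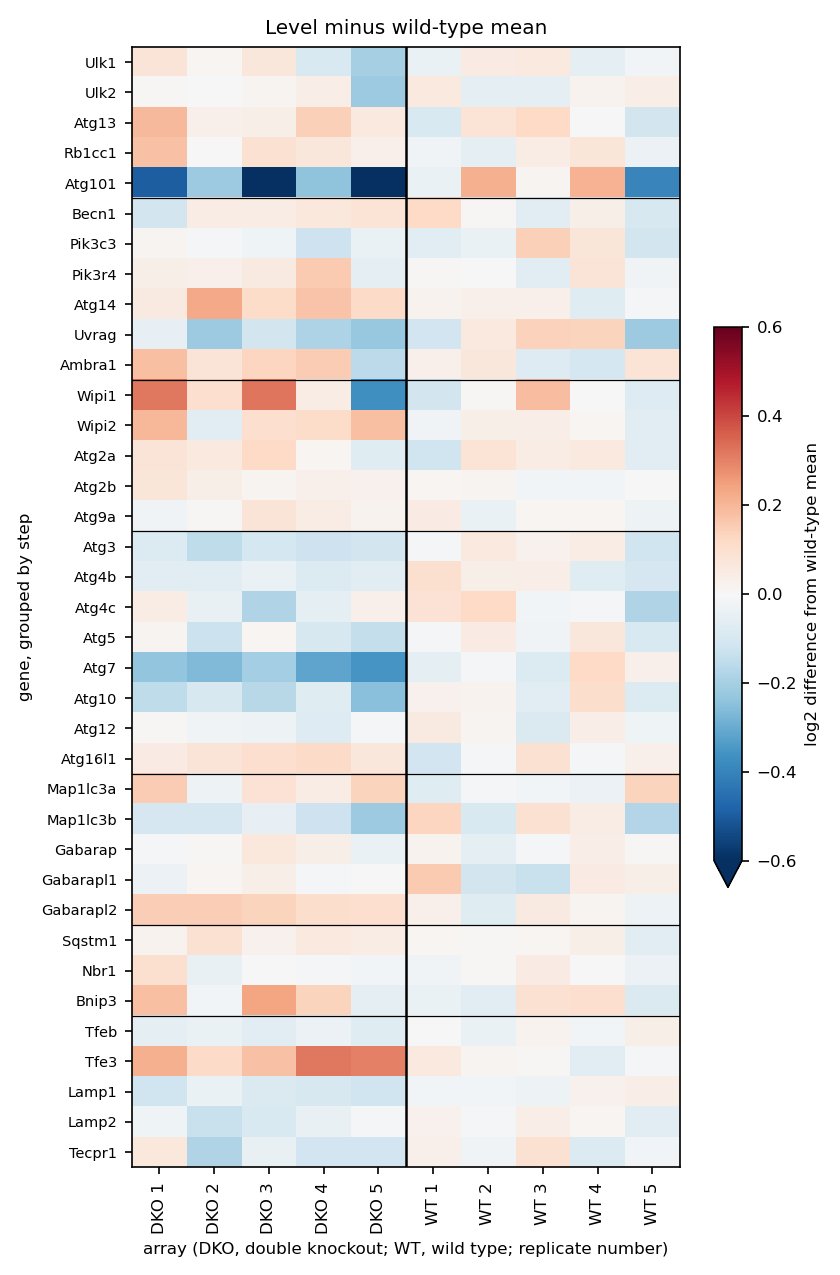
Level of each of the 37 genes on each array minus the mean of the wild-type arrays for that gene (log2, blue lower, red higher), with double knockout arrays on the left and horizontal lines between the steps. The Atg7 row is blue and the Tfe3 row red on all 5 double knockout arrays, the Atg101 row passes the lower end of the scale on double knockout replicates 3 and 5, and most other rows stay near 0.

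On each array the median of the members stayed close to the wild-type mean. The median over the 37 members of the level minus the wild-type mean ran from -0.04 to 0.03 in double knockout arrays and from -0.04 to 0.02 in wild-type arrays. Double knockout replicate 5 held the lowest value of the 10 arrays for 11 members, Wipi1 and Atg7 among them, and the highest for 0. Double knockout replicate 1 held the highest for 9 and the lowest for 2. Wild-type replicate 5 held the lowest value for 5.

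The rest of the pathway was read from 7 further lists with 152 genes, of which 146 could be read from a single-symbol probe set. None of these was called in limma. At an unadjusted p under 0.05 there were 31 of the 146, 21 lower and 10 higher. The share at that threshold was 15.1% over all probe sets and 19.5% over those above the background guide. In the list of other autophagy genes 10 of 22 had higher means and the median log2 difference was -0.01. Its sign turned when single arrays were left out, from -0.034 without double knockout replicate 4 to 0.014 without wild-type replicate 2. The lowest p belonged to the ER-phagy receptors Calcoco1 (-0.195, limma adjusted p = 0.154) and Tex264 (-0.115, limma adjusted p = 0.170) and the Atg8 protease Atg4d (-0.17, limma adjusted p = 0.220). Among 14 genes of autophagosome and lysosome fusion 6 had higher means, with a median of -0.03 (-0.007 without double knockout replicate 3). The adaptor Plekhm1 had 0.20 (SE 0.05, limma adjusted p = 0.0971), the SNARE protein Stx17 of the autophagosome had -0.15 and the Rab7 effector Rilp -0.12.

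Lysosomal hydrolases had lower means for 24 of 31 measured genes, with a median log2 difference of -0.06 (-0.033 without double knockout replicate 4) and values from -0.24 to 0.12. All 8 of the 31 with an unadjusted p under 0.05 had lower means, while 7.6% of all probe sets were lower and 7.52% higher at that threshold. They were led by the sialidase Neu1 (-0.24, SE 0.06, limma adjusted p = 0.0807), the fucosidase Fuca1 (-0.165, limma adjusted p = 0.119) and the cathepsin Ctsf (-0.16, limma adjusted p = 0.122). Membrane proteins and cofactors of lysosomes had lower means for 15 of 16, with a median of -0.07; the channel Tmem175 had -0.17, the hydrolase receptor Scarb2 -0.19 and the sialic acid exporter Slc17a5 -0.12, with limma adjusted p from 0.205 to 0.240. Over all probe sets 51.5% had lower means, and 54.3% of those above the background guide did. Macrophages are rich in lysosomes, and the means of their markers were higher with the double knockout, with a median of 0.22. In the fit that also held the macrophage marker mean, 23 of 31 hydrolases and 16 of 16 membrane genes and cofactors were lower, at medians of -0.075 and -0.092. That covariate was added after seeing the data and differed between the genotypes too. Whether macrophage content affected these means was not tested.

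Subunits of the vacuolar ATPase, the proton pump that acidifies lysosomes, had higher means for 11 of 15, with a median log2 difference of 0.05 and a highest value of 0.11. The median was 0.033 without double knockout replicate 4 and 0.028 without wild-type replicate 3, and 9 of 15 were higher without wild-type replicate 5. The subunits of lowest p were Atp6v0a2 (0.11), Atp6v1c1 (0.11) and Atp6v1g1 (0.09), with limma adjusted p from 0.284 to 0.349. In the list of mTORC1 and AMPK control 11 of 30 had higher means, with a median of -0.045. That median was -0.005 without double knockout replicate 5 and -0.022 without wild-type replicate 4. Stk11, the LKB1 kinase that activates AMPK, had -0.17 (SE 0.05, limma adjusted p = 0.113), the leucine sensor Sesn2 had 0.22 and the lysosomal scaffold subunit Lamtor3 had 0.13. Transcription factors known to act on autophagy genes had higher means for 7 of 18, with a median of -0.02, which lay between -0.053 without double knockout replicate 3 and -0.006 without double knockout replicate 5 when single arrays were left out. Zkscan3, described as a repressor of autophagy genes, had -0.15, the stress factor Ddit3 0.235 and Xbp1, a factor of the unfolded protein response, 0.12, with limma adjusted p from 0.160 to 0.240.

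**Figure D4:**
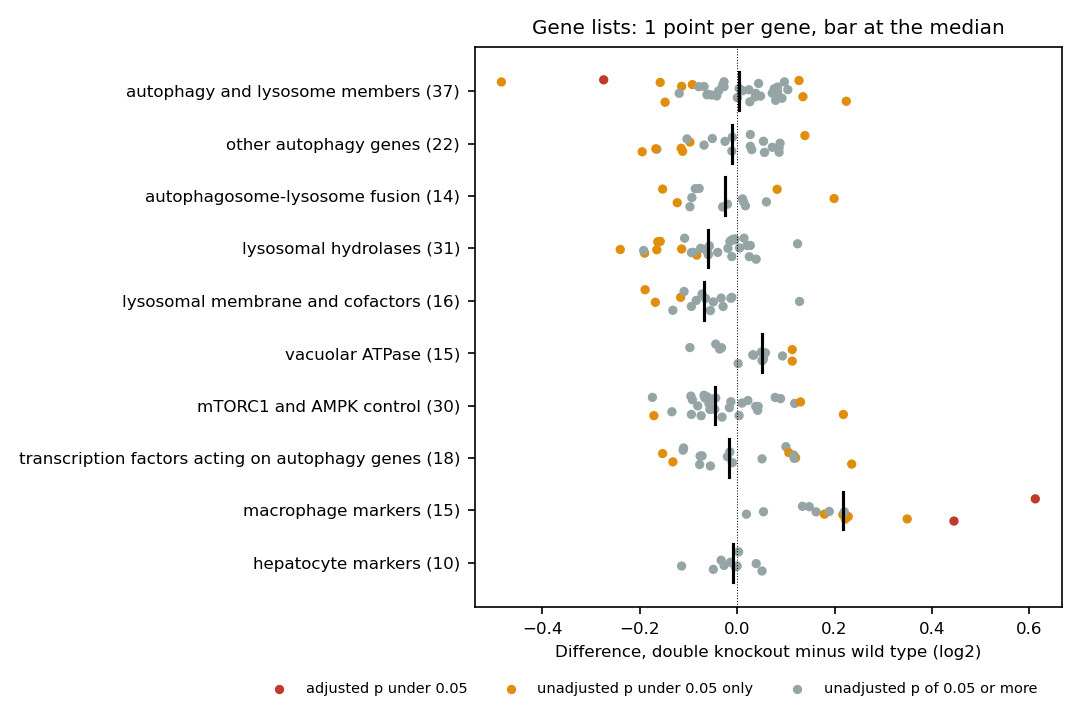
Difference between double knockout and wild-type livers (log2, horizontal axis) for each measured gene of the autophagy and lysosome set, of the 7 further pathway lists and of the macrophage and hepatocyte markers, with the number of genes in brackets and a bar at each median. Medians lie between -0.07 and 0.05 for the pathway lists, at 0.004 for the autophagy and lysosome members and at 0.22 for macrophage markers.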

How the data were processed

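The authors deposited log2 levels of 41345 probe sets, 1 column per array; per the submitters' processing notes the program was Affymetrix Expression Console. For its version, summarisation and normalization: not given in the sources used here. Scanner files and detection calls were not analysed here; the number of arrays limits the precision. Groups came from the sample titles. Of the probe sets, 23521 had 1 symbol in the platform annotation, 1814 several and 16010 none; the 25335 with at least 1 symbol were tested. Double knockout was compared with wild type in limma (version 3.58.1, R version 4.3.3; lmFit, then eBayes, two-sided, group as the only term, Benjamini-Hochberg over 25335 probe sets, call at an adjusted p under 0.05), with 95% intervals from the same fit. The fit was tested on simulated data. Members and lists were chosen with earlier results of these data known. Named were all members, and of each list the called genes or otherwise up to 3 of lowest p; arrays were listed for members with an unadjusted p under 0.05, and a few further members were chosen after their values were seen. Alternatives were other variance options, array weights, further normalization, other sets of probe sets, a replicate block, a threshold of 0.10 and leaving out arrays; covariates for macrophage, acinar and olfactory receptor means and the fit without 4 arrays were added after seeing the data.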

Additional observations from a re-analysis of the deposited data

Results flagged for a closer look

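In 120 groups of 5 arrays, over the 37 members, the knocked-out genes and the list genes named above, 6 held an array whose gap to the nearest other array took more than 0.71 of the range of its group, which is the number (6) that chance at 1 in 20 gives. Among the members these were Ulk2 in double knockout replicate 5, at 9.04 against 9.26 to 9.30 in the other 4 arrays, and Becn1 in double knockout replicate 1, at 8.82 against 8.98 to 9.02. Among list genes they were Ctsf in wild-type replicate 2, at 9.87 against 9.70 to 9.74, Fuca1 in wild-type replicate 4, at 10.45 against 10.31 to 10.35, Atp6v1g1 in wild-type replicate 3, at 7.86 against 8.00 to 8.03, and Sesn2 in wild-type replicate 5, at 7.47 against 7.76 to 7.85.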

How the results depend on the processing

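The member count of 1 (Atg7) became 2, with Tfe3 added, under an intensity trend, array weights, probe sets above the background guide only, the mean of a gene's probe sets and a threshold of 0.10; it became 0 with every probe set tested (adjusted p = 0.0652 for Atg7), with the macrophage or olfactory receptor covariate and without the 4 arrays of highest acinar marker mean, and ranged from 0 to 1 without single arrays: 0 in the fits lacking double knockout replicate 4 or 5, or wild-type replicate 2, 4 or 5, and Tfe3 in place of Atg7 without double knockout replicate 2. Atg7 kept its direction in 24 of 24 alternatives, from -0.34 to -0.24, and its call in 13. Tfe3 was called in 5 of 24, with adjusted p from 0.0339 to 0.180. Atg101 was called in 1 of 24 (the replicate block). The 28 members with an unadjusted p of 0.05 or more were called in 0 of 672 values under alternatives, and the members' median stayed between -0.02 and 0.02. Over all probe sets the 224 calls became 377 above the background guide, 75 with every probe set tested, 585 at the threshold of 0.10, 25 with the macrophage covariate, 53 with the olfactory receptor covariate, 68 without the 4 acinar-rich arrays and 64 to 253 without single arrays, the counts furthest from 224 being 68, 87, 124 and 135 without double knockout replicates 4, 5, 3 and 2 and 64, 131 and 144 without wild-type replicates 2, 4 and 3. Listed pathway genes had 2 calls (Neu1 and Plekhm1) at the threshold of 0.10 and 0 to 1 without single arrays (Neu1 without wild-type replicate 3). Lower means were counted for 7 conjugation enzymes, 24 lysosomal hydrolases and 15 lysosomal membrane genes under both further normalizations, and for 6 to 7, 21 to 26 and 13 to 16 over all fits run, at medians of -0.125 to -0.04, -0.078 to -0.033 and -0.12 to -0.05.

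Whole arrays showed no pairing by replicate number: deviations of same-numbered arrays correlated between -0.477 and 0.131, 1 of 5 pairs over 0.1. Of the 5 double knockout arrays, 0 correlated best with its own number. Correlations over whole arrays cannot exclude a pairing that affects single genes. For Atg101 the SE was 0.14 without and 0.05 with the replicate block. With the replicate block 76 probe sets were called and the member count stayed 1, with Atg101 (-0.48, SE 0.05, adjusted p = 0.0197) in place of Atg7 (adjusted p = 0.117).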
